A study of Mus musculus with 3 samples.

Results

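The p38 kinases, the kinases upstream of them and their MK2 branch were followed in leukocytes of 4T1 mammary tumors as 10 of the 32285 genes counted. The members were chosen by gene symbol: the p38 kinases Mapk14 (p38α), Mapk11 (p38β), Mapk12 (p38γ) and Mapk13 (p38δ), the upstream kinases Map2k3 (MKK3), Map2k6 (MKK6) and Map3k5 (ASK1), and the downstream kinases Mapkapk2 (MK2), Mapkapk3 (MK3) and Rps6ka5 (MSK1). The comparison addressed which leukocytes carried transcripts of the pathway that the drug acts on.

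Live CD45+ cells were sorted from primary tumors of female BALB/c mice, 6-8 weeks old when implanted with 200000 4T1-luc mouse mammary carcinoma cells in the mammary fat pad, and read as 3′ single-cell RNA libraries on day 14. The vehicle mice bore p38α wildtype tumor cells and received DPBS. The p38i mice bore the same cells and received LY2228820 (ralimetinib), an inhibitor of p38α and p38β, by daily gavage at 30 mg/kg for 10 days from day 4. The p38KO mice bore tumor cells of a single clone (p38a-KO-H9) in which CRISPR-Cas9 had inactivated Mapk14. The drug therefore reached host leukocytes, while the deletion was in tumor cells only and every sorted leukocyte was wildtype for Mapk14. The study describes daily gavage only for mice with control tumors, so p38KO and vehicle may differ in gavage too. Each group was 1 library pooled from 3 mice, so no test between groups was possible, and group, library and batch cannot be told apart. The intervals below are 95% intervals that cover counting error only.

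p38 kinases are stress-activated protein kinases. Cytokine, pathogen and stress signals pass through MAP3 kinases such as ASK1 to MKK3 and MKK6, which phosphorylate p38 on a threonine and a tyrosine of its activation loop. Active p38 switches on MK2 and MK3, which stabilise AU-rich cytokine mRNAs in myeloid cells, and MSK1, which phosphorylates chromatin and CREB, and dual-specificity phosphatases such as Dusp1 switch it off again.

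The coding sequence (GENCODE M21 transcripts, GRCm38) around the activation loop is shown because all 4 p38 kinases share the motif that their upstream kinases act on. Capitals mark the codons of the Thr-Gly-Tyr motif, which start at codon 180 of Mapk14, 180 of Mapk11, 183 of Mapk12 and 180 of Mapk13.
Mapk14 activation loop: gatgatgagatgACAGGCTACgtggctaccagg
Mapk11 activation loop: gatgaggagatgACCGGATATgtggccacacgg
Mapk12 activation loop: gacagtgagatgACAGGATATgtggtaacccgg
Mapk13 activation loop: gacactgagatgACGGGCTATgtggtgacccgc
The window around the gatekeeper codon is shown because this residue lines the pocket that inhibitors of p38α and p38β occupy. Capitals mark that codon, which is codon 106 of Mapk14, 106 of Mapk11, 109 of Mapk12 and 107 of Mapk13.
Mapk14 gatekeeper: gtgtacctggtgACCcatctcatgggg
Mapk11 gatekeeper: gtgtacctcgtgACGaccctgatgggc
Mapk12 gatekeeper: ttctacctggtgATGccattcatgggc
Mapk13 gatekeeper: ttctacctggtgATGcccttcatgcag
The codon encoded threonine in Mapk14 and Mapk11 and methionine in Mapk12 and Mapk13. Over the 27 bases of this window Mapk12 and Mapk13 shared 23, Mapk14 and Mapk11 shared 20, and Mapk14 and Mapk13 shared 18. Mapk14 (chromosome 17, 28691329 to 28748406, plus strand, GRCm38) and Mapk13 (chromosome 17, 28769297 to 28780233, plus strand) were neighbours 20890 bases apart. Mapk11 (chromosome 15, 89142486 to 89149628, minus strand) and Mapk12 (chromosome 15, 89130584 to 89140703, minus strand) lay 1782 bases apart, and neither pair overlapped.

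Leukocytes were gated by raw counts of a few genes: Csf3r and Cxcr2 for neutrophils, Ly6c2 and Fn1 for monocytes, C1qa for macrophages, Cd3e for T cells, Ncr1 for NK cells and Flt3 for dendritic cells (DC). The gates took 10137 of 12472 cells, of which 5539 were neutrophils, 1956 monocytes, 960 macrophages, 1334 T cells, 285 NK cells and 63 DC. Libraries held 21675352 to 25997636 UMIs (counted molecules), and the kept cells had a median of 0.671% mitochondrial UMIs in vehicle, 0.968% in p38i and 2.10% in p38KO. Of kept barcodes, 10 to 12 per library occurred in another library too. Against marker genes that the gates did not use, all 7 neutrophil, 6 monocyte, 7 macrophage and 7 T cell markers were highest in their own gate in all libraries, as were 5 of 6 NK and 5 of 7 DC markers.

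The gates were not pure. At least 2 UMIs of T cell markers were seen in 20.2% of monocyte-gated cells of vehicle, 12.0% of p38i and 20.6% of p38KO. Summed epithelial markers, which the tumor cells carry, stood in the neutrophil gate at 12.7 CPM (UMIs per 1000000 UMIs of the gate) in vehicle, 5.83 in p38i and 137 in p38KO, and mast cell or basophil markers in the NK gate at 1.48, 1.58 and 289 CPM. B cell markers reached at most 49.5 CPM in any gate, fibroblast markers 3.20 CPM and endothelial markers 155 CPM. Their part in the differences between libraries was tested only as far as cells with T, NK, B, mast or basophil, or epithelial markers were left out. T and NK markers were not held against T- or NK-gated cells. Cells with fibroblast or endothelial markers were not left out.

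Mapk14, the kinase that the drug is aimed at, was spread over every leukocyte class. In neutrophils its level was 29.4 CPM in vehicle (95% interval 25.1 to 34.3), 35.6 in p38i and 34.0 in p38KO. In monocytes it was 38.7, 50.3 and 42.2 CPM, in macrophages 30.1, 42.6 and 39.7 CPM, and in T cells 36.5, 38.6 and 33.5 CPM. The ranges of neutrophils and monocytes over the libraries did not overlap, with neutrophils lower, although the interval of that ratio held 0 in p38KO, while the ranges of neutrophils, macrophages, T cells and NK cells overlapped. DC stood highest in each library at 66.9, 54.7 and 80.7 CPM, but this rested on 13, 14 and 44 UMIs and the intervals of vehicle and p38i reached down to 35.6 and 29.9 CPM.

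The larger cells carried more Mapk14 molecules at like CPM levels. Per 100 cells, 60.7 to 75.1 Mapk14 UMIs were counted in macrophages, 35.5 to 41.9 in monocytes, 18.4 to 23.9 in T cells and 9.12 to 11.0 in neutrophils. Median depth was 13506 to 18844 UMIs in the macrophage gate and 2202.5 to 2536 in the neutrophil gate. After every cell was thinned to 1500 UMIs, 4.34 to 4.75% of neutrophils and 5.20 to 6.90% of macrophages held a Mapk14 UMI, against 7.62 to 8.73% and 39.3 to 45.6% before thinning. Macrophages gave 17.0% of the gated Mapk14 UMIs in vehicle, 16.4% in p38i and 44.1% in p38KO. They were 4.53%, 4.03% and 15.4% of the kept cells.

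The level of Mapk14 was no check of the knockout. The sorted cells were host cells, and the exon targeted in the tumor cells (exon 4 of 13, chromosome 17, 28715383 to 28715441) lies 2844 transcript bases from the 3′ end that was read.

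Mapk13, the p38δ gene, was a neutrophil transcript. Neutrophils held 55.2 CPM in vehicle, 61.2 in p38i and 33.6 in p38KO, while monocytes held 10.4, 6.79 and 6.39 CPM, macrophages 2.58, 3.23 and 1.87 CPM, and T cells 0.738, 0.398 and 0.424 CPM. The lowest neutrophil level was 3.23-fold above the highest level of any other gate. The neutrophil gate gave 81.7%, 86.2% and 74.4% of the gated Mapk13 UMIs. After thinning, 6.67%, 6.56% and 5.55% of neutrophils held a Mapk13 UMI, against 0 of 414 T cells in vehicle (upper Clopper-Pearson limit 0.887%), 0 of 491 in p38i (0.748%) and 1 of 429 in p38KO, whose median depth of 4070 to 5191.5 UMIs was above that of neutrophils. Before thinning the neutrophil shares were 13.3%, 13.2% and 8.38%.

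Neutrophil markers gave a measure of neutrophil RNA in the other gates. In the monocyte gate, Mapk13 stood at 18.8%, 11.1% and 19.0% of its neutrophil level, while the summed neutrophil markers stood at 4.25%, 3.88% and 1.96% of theirs. In the T gate both were at 0.490 to 1.55%, with Mapk13 at 1 or 2 UMIs per library.

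Mapk11, the p38β gene and the other target of the drug, was counted mostly in T cells, at low counts. T cells held 4.80 CPM in vehicle (13 UMIs), 7.17 in p38i (18 UMIs) and 8.91 in p38KO (21 UMIs), which was 52 of 68 UMIs over all gates. Neutrophils held 2 Mapk11 UMIs over all 3 libraries and macrophages 2. Within T cells, those with Cd4 and no Foxp3 held 8.09, 12.1 and 11.4 CPM and those with Cd8a or Cd8b1 held 2.74, 3.23 and 1.57 CPM, from 8 to 10 UMIs of both per library, and the intervals of the ratio left out 0 in p38KO only. Mapk12 gave 9 UMIs in all gated cells. Macrophages held none, which allows a level of up to 0.860, 0.882 and 0.311 CPM at 3 UMIs a library.

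**Figure D1:**
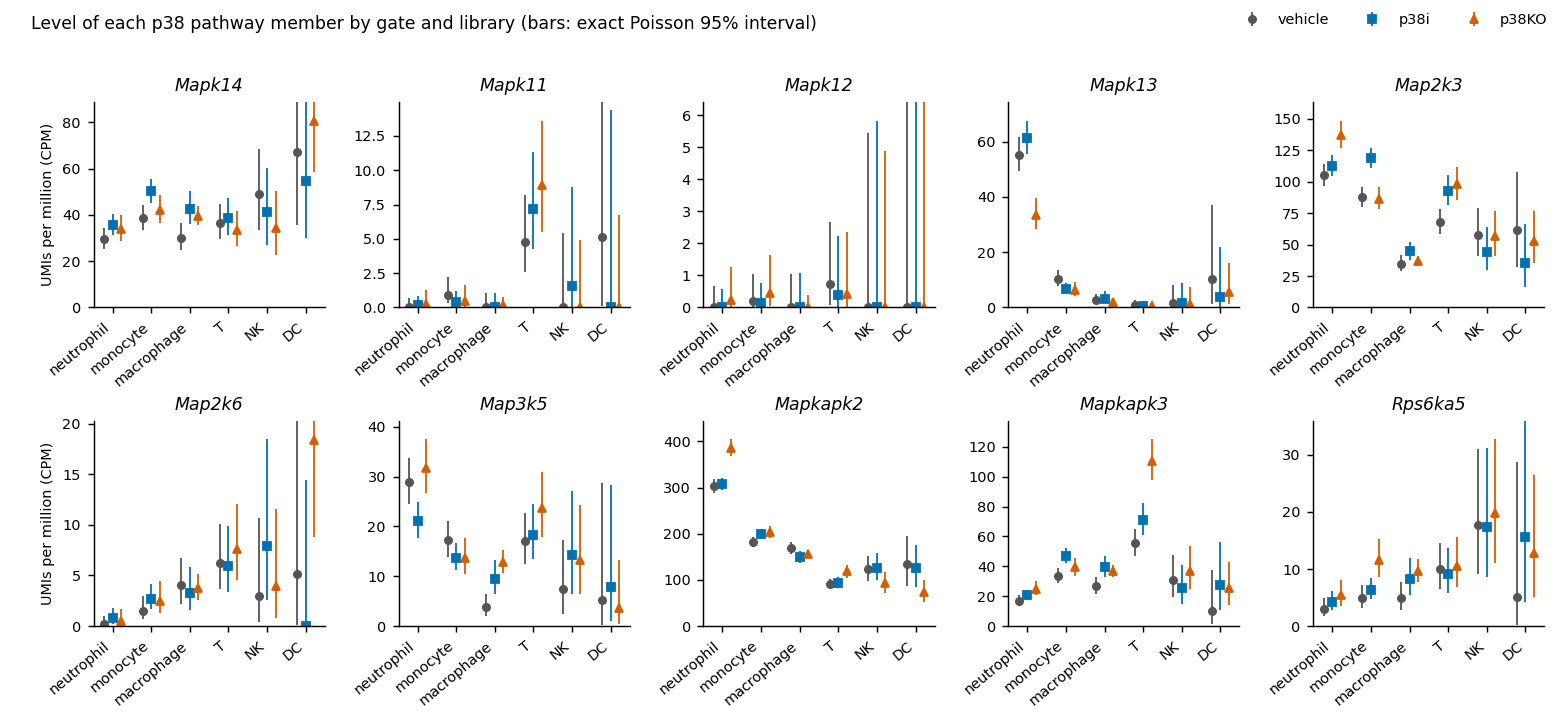
Level of each member in CPM (linear axes from 0, a scale of its own for each gene) by gate for the vehicle, p38i and p38KO libraries. Bars are exact Poisson 95% intervals, and some DC intervals run past the top of the axis. Mapk13 and Mapkapk2 stand highest in neutrophils and Mapkapk3 in T cells in each library, while Mapk14 lies between 29.4 and 50.3 CPM in all gates but DC.

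Of the upstream kinases, Map2k3, which encodes the p38 activator MKK3, lies on chromosome 11 (60932033 to 60952811) and was counted in every gate. Neutrophils held 105, 113 and 137 CPM, monocytes 87.8, 119 and 86.5 CPM, and T cells 67.9, 92.8 and 98.0 CPM. Macrophages held 34.7, 44.7 and 37.1 CPM, lower than every gate but NK cells in p38i (44.3 CPM) and DC in p38i (35.2 CPM), and neutrophils exceeded them 3.03-, 2.52- and 3.70-fold in vehicle, p38i and p38KO. Neutrophils led in vehicle and p38KO and monocytes in p38i. The other activator, Map2k6 (MKK6; chromosome 11, 110399122 to 110525522), gave 179 UMIs in all gated cells. T cells held 6.27, 5.98 and 7.64 CPM of it and neutrophils 0.179, 0.767 and 0.454 CPM, from 1, 5 and 2 UMIs.

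Map3k5 (chromosome 10, 19934472 to 20142753), which encodes the redox-sensitive ASK1, led in neutrophils in each library at 28.9, 21.0 and 31.8 CPM. T cells held 17.0, 18.3 and 23.8 CPM and monocytes 17.2, 13.7 and 13.7 CPM, and the ranges of neutrophils and T cells overlapped. Macrophages held 3.73 CPM in vehicle, 9.41 in p38i and 12.8 in p38KO. Within T cells Map3k5 was higher in those with Cd4 and no Foxp3 than in those with Cd8a or Cd8b1: 22.2 against 8.23 CPM in vehicle, 31.4 against 11.3 in p38i and 39.2 against 11.0 in p38KO, and the interval of the ratio left out 0 in all 3 libraries.

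Downstream, the 2 MAPKAP kinases divided between cell classes. Mapkapk2 (chromosome 1, 131053700 to 131097826), which encodes MK2, stood at 303 CPM in neutrophils of vehicle, 308 in p38i and 386 in p38KO. Monocytes held 182, 199 and 203 CPM, macrophages 169, 150 and 156 CPM, and T cells 90.4, 94.0 and 118 CPM. The lowest neutrophil level was 1.49-fold above the highest level of any other gate, and neutrophils exceeded T cells 3.26- to 3.36-fold. After thinning, a Mapkapk2 UMI was seen in 34.6 to 39.5% of neutrophils and in 12.3 to 19.3% of T cells. Per cell the order differed, with 94.1 to 105 UMIs per 100 neutrophils and 252 to 340 per 100 macrophages.

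Mapkapk3 (chromosome 9, 107254927 to 107289877), which encodes the close relative MK3, went the other way. T cells held 55.4, 70.9 and 111 CPM and neutrophils 16.8, 20.6 and 25.0 CPM, a difference of 3.29- to 4.44-fold. Monocytes held 33.8, 46.7 and 39.3 CPM and macrophages 26.7, 39.4 and 36.9 CPM, between the other 2 gates in every library. The lowest T cell level was 1.18-fold above the highest level elsewhere.

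Rps6ka5 (chromosome 12, 100548439 to 100726983), the MSK1 gene, was highest in NK cells at 17.7, 17.4 and 19.9 CPM, from 12, 11 and 15 UMIs. T cells held 9.97, 9.16 and 10.6 CPM, and the interval of the ratio held 0 in every library. At least 2 UMIs of T cell markers were seen in 48.9 to 67.7% of NK-gated cells.

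**Figure D2:**
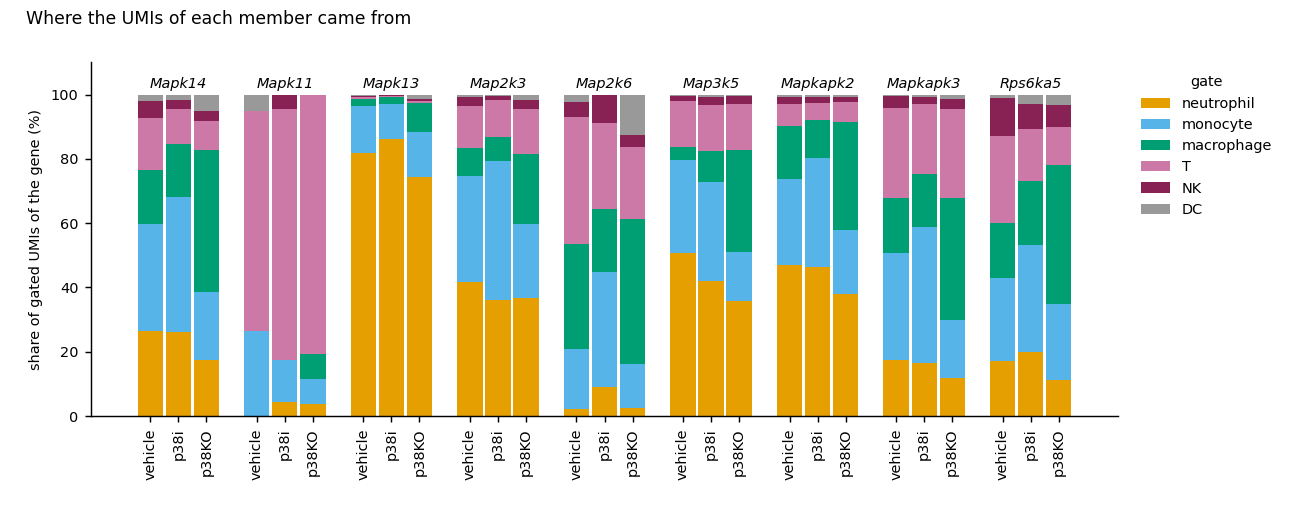
Share of the UMIs of each member (%, stacked to 100 within a library) that came from each gate; Mapk12 is left out for its 9 UMIs. Neutrophils give 74.4 to 86.2% of Mapk13 and T cells 68.4 to 80.8% of Mapk11, and the macrophage share of Mapk14 goes from 17.0% in vehicle to 44.1% in p38KO.

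A gate was called leading where it held the highest level in all 3 libraries, and separated where its lowest library was above every other gate's highest. Of the 7 members with at least 200 UMIs in gated cells, 6 had a leading gate, against 43.8% of the 10101 genes tested, and 5 were separated, against 32.2%. Map3k5 led in neutrophils without separation, and the leading gate of Map2k3 changed between libraries. The separated members were Mapk14 (DC), Mapk13 and Mapkapk2 (neutrophil), Mapkapk3 (T) and Rps6ka5 (NK). Without the 63 DC, a setting chosen after the values were seen, 5 had a leading gate, against 51.1%, and 4 were separated, against 37.6%. Mapk14 was not among these. The leading gate of Mapk13 and Mapkapk2 stayed separated under all 11 other settings tried, while that of Mapk14 did so under 7.

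Genes whose levels over the 18 combinations of gate and library were most like a member's are given as a description. The points share libraries and depth. For Mapk13 these were Bend4 (Pearson r = 0.97), Stfa3 (0.96) and Usp32 (0.96), and for Mapkapk2 they were Slc16a3 (0.96), Msrb1 (0.95) and Mtus1 (0.95). These were the top of long lists, as 147 genes reached 0.9 for Mapk13 and 102 for Mapkapk2. Mapkapk3 was most like Hnrnpll (0.92), Sh3kbp1 (0.89) and Zfp287 (0.89), and Map3k5 most like Ypel3 (0.92), Senp2 (0.90) and Isg20 (0.89). Map2k3 was most like Ier2 (0.91), Ube2d3 (0.90) and Med13l (0.89). For Mapk14 no gene of the 10094 compared reached 0.9, and the closest were Gng10 (0.88), Ppm1m (0.87) and Sdad1 (0.87).

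Few member values differed from vehicle in p38i. A difference was called where the log2 ratio was at least 0.5 either way, its interval left out 0 and at least 20 UMIs were seen over both libraries. Of 39 values of a member in a gate with enough UMIs, 3 were called higher, against 4.96% of all values tested, and 1 lower, against 3.97%. Those higher were 3 of the 8 values in macrophages, where 3.08% of all values were called higher: Map3k5 (log2 ratio 1.34, interval 0.37 to 2.39), Mapkapk3 (0.56, 0.17 to 0.96) and Mapk14 (0.50, 0.13 to 0.88). Against the same vehicle library, p38KO macrophages were at 1.78 for Map3k5, called too. They were at 0.47 for Mapkapk3 (0.13 to 0.81) and 0.40 for Mapk14 (0.08 to 0.72), under the size of a call. In p38i monocytes Mapkapk3 was at 0.47 (0.20 to 0.74), Mapk14 at 0.38 (0.13 to 0.63) and Map3k5 at -0.33 (-0.75 to 0.10), none of them called. Mapk13 in monocytes was lower (-0.61, -1.20 to -0.03). With gates scaled to the median of all genes, 3 were higher and 2 lower, against 3.96% and 4.52% of all values.

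The neutrophil gate, the largest source of Mapk13 and Mapkapk2, gave no call in p38i. Its log2 ratios were 0.28 for Mapk14 (-0.02 to 0.57), 0.15 for Mapk13 (-0.07 to 0.37) 0.02 for Mapkapk2 (-0.07 to 0.12) and -0.46 for Map3k5 (-0.80 to -0.12). Map3k5 was the further value called lower with gates scaled to the median of all genes (-0.58), and it was called lower after thinning too. The macrophage call of Mapk14 rested on 105 and 145 UMIs. It was seen in the shallower cells: in macrophages at or under the median of 15176.5 UMIs, vehicle held 8 UMIs (14.4 CPM) and p38i 34 (54.7 CPM), and above it 33.1 and 39.9 CPM, where the interval of the ratio held 0. Macrophages of p38KO held 45.5 CPM at or under that median and 37.2 CPM above it. After thinning, in a single random draw, the p38i ratio was -1.03 (-2.75 to 0.53), and none of the 3 macrophage calls held. At that depth 0.578 to 2.36% of macrophages held a Map3k5 UMI and 3.47 to 4.71% a Mapkapk3 UMI, over the 3 libraries. The part of low counts in the loss of these calls was not tested. With cells limited to 5% mitochondrial UMIs only 1 of the 3 higher calls remained, that of Map3k5. Map3k5 was higher in the deeper macrophages, with a p38i ratio of 1.71 (0.59 to 2.98) above 15176.5 UMIs. At or under that median the ratio was -0.16 (-2.59 to 2.26), from 4 and 4 UMIs.

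In p38KO, which was set against the same vehicle library, 6 of 38 values were called higher, against 9.15% of all values tested, and 3 lower, against 3.39%. With gates scaled to the median of all genes, 4 were higher and 3 lower, against 6.42% and 4.89% of all values. The values called lower were Mapk13 in neutrophils and monocytes and Mapkapk2 in DC, the last from 26 and 40 UMIs. The monocyte and DC calls held under 9 and 8 of 14 other settings, and the p38i call of Mapk13 in monocytes under 7.

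Mapk13 in neutrophils was lower in p38KO (33.6 CPM, 148 UMIs) than in vehicle (55.2 CPM, 308 UMIs), a log2 ratio of -0.72 (-1.01 to -0.43), in a gate where 2.23% of all values were called lower and 12.7% higher. The p38KO interval (28.4 to 39.4 CPM) lay below those of vehicle (49.2 to 61.7 CPM) and p38i (55.4 to 67.6 CPM), which overlapped. The median log2 ratio of all genes in this gate was 0.16, and relative to it the ratio was -0.87. The difference was called in the deeper cells. Above the median of 2355 UMIs, neutrophils held 58.0 CPM in vehicle, 67.9 in p38i and 30.5 in p38KO, and at or under it 46.8, 47.3 and 38.2 CPM, where the interval of p38KO against vehicle (-0.80 to 0.22) held 0. After thinning to 1500 UMIs a cell the ratio was -0.47 and was no longer called. Summed neutrophil markers of the gate moved in the same order, at 189491 CPM in vehicle, 208035 in p38i and 142058 in p38KO. Most of that sum was S100a8 and S100a9, which moved in that order, as did Retnlg and, by little, Il1r2. G0s2 (6469, 3617 and 5696 CPM), Hdc (1550, 1276 and 1676 CPM) and Mmp9 (557, 531 and 559 CPM) did not. The part of neutrophil markers in the Mapk13 difference was not tested.

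Neutrophils were split by whether they held a UMI of Cxcr2, a chemokine receptor of mature neutrophils and 1 of the 2 genes of the gate. Those with Cxcr2 held 61.7, 64.2 and 34.7 CPM of Mapk13, and those without it 18.1, 39.4 and 24.5 CPM. The interval of that difference left out 0 in vehicle and p38i and held it in p38KO. In neutrophils with Cxcr2 the log2 ratio of p38KO to vehicle was -0.83 (-1.13 to -0.53), and in those without it, from 12 and 15 UMIs, 0.44 (-0.79 to 1.64). The ratio of p38i to vehicle in those without Cxcr2 was 1.13 for Mapk13 (0.19 to 2.12, from 31 and 15 UMIs) and 0.54 for Map2k3 (0.04 to 1.06). The ratio of p38KO to the same vehicle cells was 0.74 for Map2k3 (0.18 to 1.29) and 1.07 for Mapkapk3 (0.08 to 2.08, from 21 and 17 UMIs). Between the 2 parts Mapkapk2 went the opposite way to Mapk13, with 279, 295 and 365 CPM in neutrophils with Cxcr2 and 444, 401 and 556 CPM in those without. The interval of that Mapkapk2 difference left out 0 in each library. Cells with Cxcr2 were deeper, at medians of 2246 to 2584.5 against 2004.5 to 2352 UMIs.

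Mapkapk3 in T cells was higher in p38KO (111 CPM, 261 UMIs) than in vehicle (55.4 CPM, 150 UMIs), a log2 ratio of 1.00 (0.71 to 1.30) that was called under all 14 other settings. p38i stood between them at 70.9 CPM with a log2 ratio to vehicle of 0.36 (0.04 to 0.68), under the size of a call, and of 0.54 (0.06 to 1.02) in T cells with Cd8a or Cd8b1. The higher p38KO level was seen in T cells with Cd8a or Cd8b1 (47.3 and 92.6 CPM), with Cd4 and no Foxp3 (80.9 and 139 CPM) and with Foxp3, the regulatory T cell factor (62.0 and 122 CPM), with log2 ratios of 0.97 (0.44 to 1.49), 0.78 (0.25 to 1.34) and 0.97 (0.27 to 1.73). T cells with NK markers were 34.5% of the gate in vehicle and 8.86% in p38KO. Their part in the difference was not tested.

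**Figure D3:**
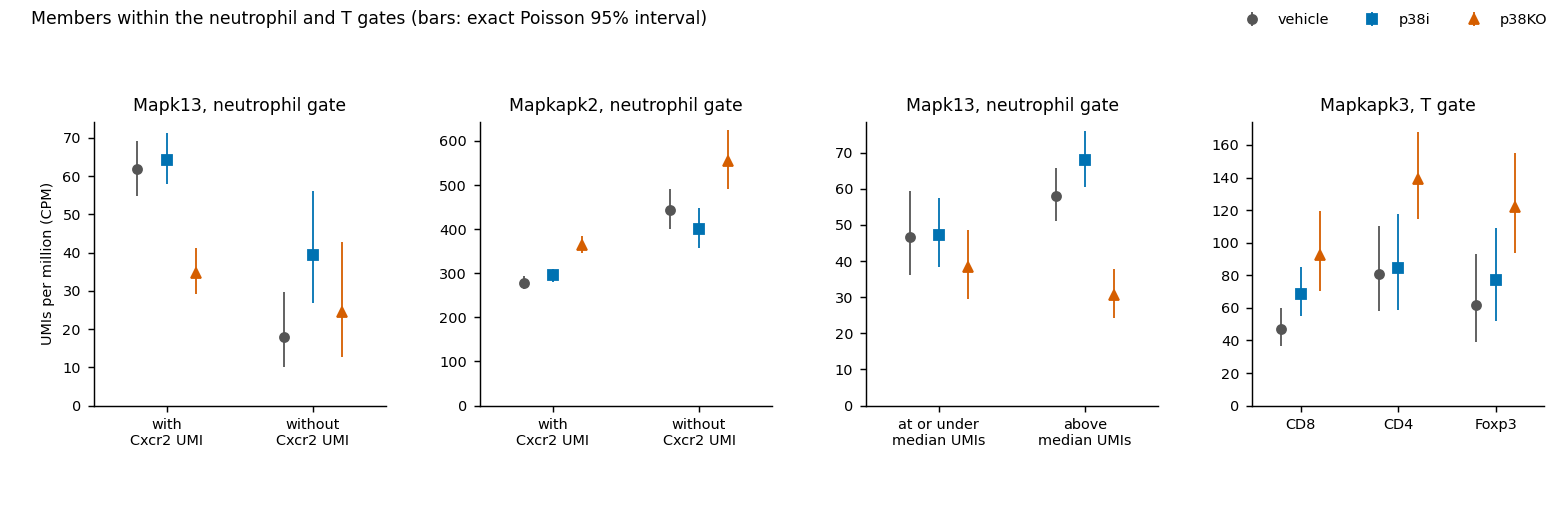
Levels in CPM (linear axes from 0) within gates for the vehicle, p38i and p38KO libraries; bars are exact Poisson 95% intervals. From left, Mapk13 and Mapkapk2 in neutrophils with and without a Cxcr2 UMI, Mapk13 in neutrophils at or under and above 2355 UMIs, and Mapkapk3 in T cells by subset, where p38KO stands highest in each subset.

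The other p38KO calls were of upstream and downstream kinases. Map3k5 in macrophages was at 3.73 CPM (13 UMIs) in vehicle and 12.8 CPM (123 UMIs) in p38KO, a log2 ratio of 1.78 (0.95 to 2.73). Above the median of 15176.5 UMIs a cell the ratio was 1.86 (0.86 to 3.05). At or under it the ratio was 1.21, with an interval that held 0 (-0.25 to 3.14, from 4 and 47 UMIs). Map3k5 was not called after thinning, where at most 2.36% of macrophages held a UMI of it. Whether too few UMIs were left for a call was not tested. Rps6ka5 was called in monocytes (4.91 and 11.6 CPM, 1.25) and in macrophages (4.88 and 9.66 CPM, 0.99). Both Rps6ka5 calls were lost with the strict gate (no UMI of another gate's genes) and after thinning, where the monocyte ratio was 0.22. After thinning at most 1.21% of monocytes and 1.55% of macrophages held a Rps6ka5 UMI, and the part of low counts in the lost calls was not tested. Map2k3 in T cells (0.53) and Mapkapk3 in neutrophils (0.57) were called higher too, but neither call held with gates scaled to the median of all genes. Map2k3 was called in no T cell subset. Its ratio was 0.06 in those with Cd8a or Cd8b1 (-0.52 to 0.61), 0.46 with Cd4 and no Foxp3 (-0.09 to 1.04) and 0.51 with Foxp3 (-0.07 to 1.11). In the T gate Cd8a stood at 557 CPM in vehicle and 359 in p38KO and Cd4 at 116 and 237 CPM. The part of that shift was not tested. Mapkapk2 itself was not called in the larger gates: its log2 ratio was 0.35 in neutrophils (0.25 to 0.44), 0.16 in monocytes and -0.12 in macrophages.

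**Figure D4:**
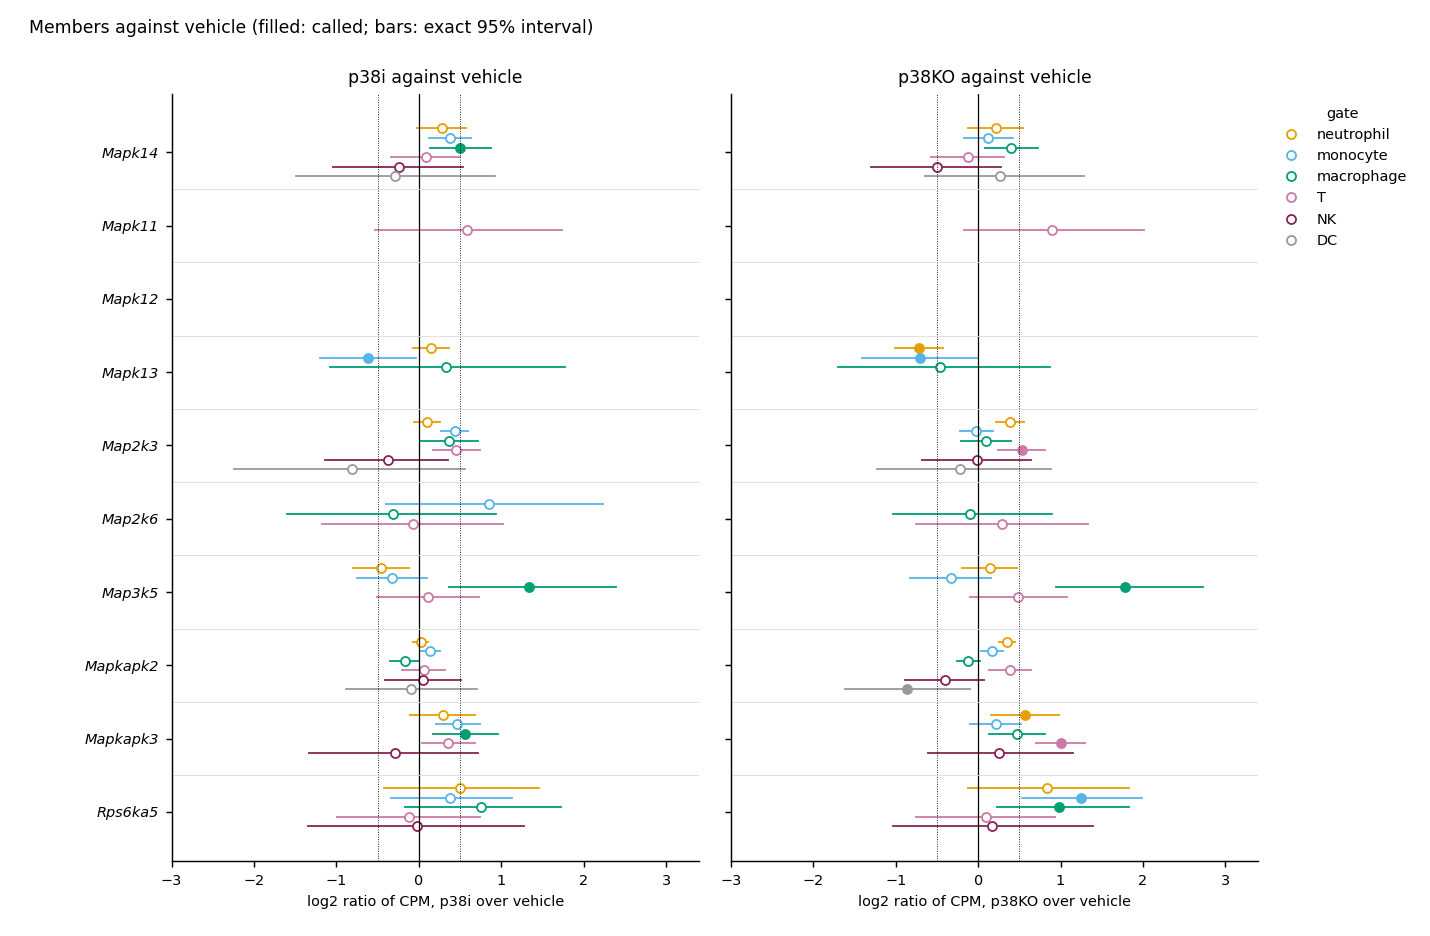
Log2 ratio of each member to vehicle in each gate for p38i and p38KO, for values with at least 20 UMIs over both libraries; filled points are called, bars are exact 95% intervals, and dotted lines mark 0.5 either way. Mapk13 in p38KO neutrophils (-0.72) lies left of 0 and Mapkapk3 in p38KO T cells (1.00) and Map3k5 in macrophages (1.34 and 1.78) lie right of it.

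The other pathway genes, 62 in 5 lists, were counted in the same way. Of 17 upstream genes, 3 values were called higher and 3 lower of 78 in p38i, and 7 higher and 5 lower of 81 in p38KO. Over all genes 4.96% of values were higher and 3.97% lower in p38i, and 9.15% and 3.39% in p38KO, which is the background for these counts. Gadd45a and Gadd45b, whose products activate MAP3 kinases, were neutrophil genes (271, 249 and 316 CPM, and 1079, 791 and 1329 CPM), as was the scaffold Spag9 (253, 263 and 299 CPM). Zap70, the T cell receptor kinase that can activate p38 directly, led in T cells (153, 150 and 173 CPM), the TAK1 adaptor Tab2 in NK cells (241, 225 and 234 CPM), the MAP3 kinase Map3k20 in monocytes (17.0, 19.2 and 13.9 CPM) and Map3k4 in DC (25.7, 35.2 and 33.0 CPM, overlapping other gates). The largest log2 ratios among the p38i calls were those of Gadd45b in DC (3.48, from 3 and 44 UMIs), Tab3 in T cells (-1.41) and Map3k20 in neutrophils (1.19). In p38KO they were those of Zap70 in neutrophils (1.78, from 7 and 19 UMIs), Gadd45g in macrophages (-1.18) and Taok3 in DC (0.93). T cell markers in the neutrophil gate stood at 56.1 CPM in vehicle and 98.0 in p38KO, and their part in the Zap70 value was not tested. Of the 4 downstream kinases, Mknk1 and Mknk2 had enough UMIs to be assessed, with 0 calls in 11 values of each contrast and no leading gate, while Mapkapk5 and Rps6ka4 gave 52 and 30 UMIs in gated cells.

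Of 18 substrates and transcription factors, 2 values were higher (background 4.96%) and 9 lower (3.97%) of 95 in p38i, and 3 higher (9.15%) and 5 lower (3.39%) of 98 in p38KO. Ddit3 (272, 204 and 282 CPM), Max (165, 151 and 155 CPM) and Zfp36, the mRNA decay factor that MK2 phosphorylates (1449, 884 and 1640 CPM), led in neutrophils, Mef2c in macrophages (160, 161 and 220 CPM) and Mef2a in monocytes (155, 137 and 192 CPM, overlapping other gates). Lsp1, an actin-binding MK2 substrate, led in DC (1014, 1376 and 1377 CPM). The largest log2 ratios in p38i were those of Usf1 in DC (1.48), Zfp36 in macrophages (-1.26, -1.49 to -1.04) and Zfp36l1, a relative of Zfp36, in NK cells (-0.83). In p38KO they were those of Mef2c in DC (-1.83), Hspb1, another MK2 substrate, in macrophages (-1.47) and Zfp36 in DC (-1.01).

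The brakes, 10 phosphatase genes, gave 4 higher (background 4.96%) and 10 lower (3.97%) of 39 values in p38i and 3 higher (9.15%) and 8 lower (3.39%) of 38 in p38KO. Dusp1 was called lower in 5 of 6 gates in both contrasts, which share the vehicle library. In DC (77.2, 35.2 and 42.2 CPM) the interval of the ratio held 0. In neutrophils, where it was highest, it stood at 2279 CPM in vehicle, 712 in p38i and 1461 in p38KO, and in monocytes at 471, 156 and 136 CPM. Dusp16 led in neutrophils too (92.7, 89.2 and 128 CPM), and Dusp10 (25.5, 26.3 and 29.7 CPM) and Dusp4 (43.9, 40.6 and 28.4 CPM) in T cells. Dusp2 led in NK cells, overlapping other gates, and went there from 522 to 185 CPM in p38i, while in p38KO neutrophils it went from 17.2 to 37.0 CPM. Ptprr was called higher in p38i neutrophils from 2 and 18 UMIs (2.95), and Dusp16 lower in p38KO T cells (-1.14).

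AU-rich mRNAs, the transcripts that the p38-MK2 branch is known to stabilise, were called more often than all genes. The list was chosen with earlier results of these data known, and some of its genes were abundant (221571 Il1b UMIs in gated cells). High counts narrow the interval that a call needs, so this excess is a description. Of 13 genes, 27 values were lower (background 3.97%) and 6 higher (4.96%) of 49 in p38i. In p38KO, 19 were lower (background 3.39%) and 6 higher (9.15%) of 52. In p38i, 8 of 10 values were lower in macrophages (background 4.3%, median log2 ratio of the list -1.07 against -0.01 for all genes). In monocytes 9 of 11 were lower (background 4.72%, median -0.60 against 0.01), and in neutrophils 5 of 10 (background 3.06%, median -0.46 against 0.13). Il1b, the interleukin-1β gene, went in neutrophils from 12774 to 8516 CPM, Cxcl2, a neutrophil chemokine, from 10595 to 5994 CPM, and the chemokine Ccl4 in macrophages from 175 to 55.3 CPM. In monocytes Cxcl2 went from 1051 to 511 CPM. Summed neutrophil markers stood in the monocyte gate at 8062 CPM in vehicle and 8075 in p38i, and in the macrophage gate at 1649 and 1305 CPM. The part of neutrophil RNA in the lower values of these 2 gates was not tested. The 1 macrophage value called higher in p38i was that of the cytokine Tnf (18 and 50 UMIs). Cxcl1 in monocytes (-2.50) and Il10 in T cells (-2.41) had the largest ratios. By level, Il1b, Cxcl2 and Ier3 (1802, 1424 and 1866 CPM) led in neutrophils, Vegfa in monocytes (288, 193 and 214 CPM) and Csf2 in T cells (50.6, 55.4 and 112 CPM).

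In p38KO, 6 of 11 values were lower in T cells (background 3.29%, median -1.03 against 0.12) and 5 of 12 in monocytes (background 2.63%, median -0.45 against 0.10). In macrophages 4 of 10 were lower (background 3.2%, median -0.35 against 0.07) and 1 was higher (background 10.2%). The higher value was that of Tnf, as in p38i, against the same 18 vehicle UMIs (155 UMIs in p38KO, 1.64, 0.93 to 2.43). In the T gate neutrophil markers stood at 1139 CPM in vehicle and 696 in p38KO, NK markers at 571 and 318 CPM, and cells with NK markers were 34.5% and 8.86%. Cd8a stood there at 557 and 359 CPM and Cd4 at 116 and 237 CPM, and the part of that shift was not tested. With the strict gate 4 of 8 values were lower in T cells, with a median of -0.98. In neutrophils 0 of 11 were lower and 3 were higher (background 12.7%), among them Il6 (3 and 44 UMIs, 0.538 and 9.98 CPM). Epithelial markers stood in the neutrophil gate at 12.7 CPM in vehicle and 137 in p38KO, and mast cell or basophil markers at 7.71 and 94.4 CPM. Their part in the Il6 value was not tested. Neutrophil levels of Il1b and Cxcl2 in p38KO were 13911 and 9044 CPM. Csf2 was at 2 UMIs in vehicle monocytes and 53 in p38KO monocytes, where epithelial markers stood at 6.23 and 109 CPM. Vegfa was lower in NK cells (-2.16). Neutrophil markers in the monocyte gate stood at 8062 CPM in vehicle and 2785 in p38KO. Without cells that held markers of T, NK, B, mast or basophil cells, 0 of 11 list values were higher and 3 lower in monocytes. That setting did not cover neutrophil markers, and their part in the monocyte differences was not tested. With the strict gate 0 of 10 monocyte values were called.

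In p38i T cells 5 of 11 values were higher (background 5.36%), among them Il1b (84.9 and 173 CPM) and Cxcl2 (122 and 278 CPM). Neutrophil markers in this gate stood at 1139 CPM in vehicle and 3231 CPM in p38i. With the strict gate 3 were higher and 3 lower of 9, and the median went from 0.66 to -0.22.

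**Figure D5:**
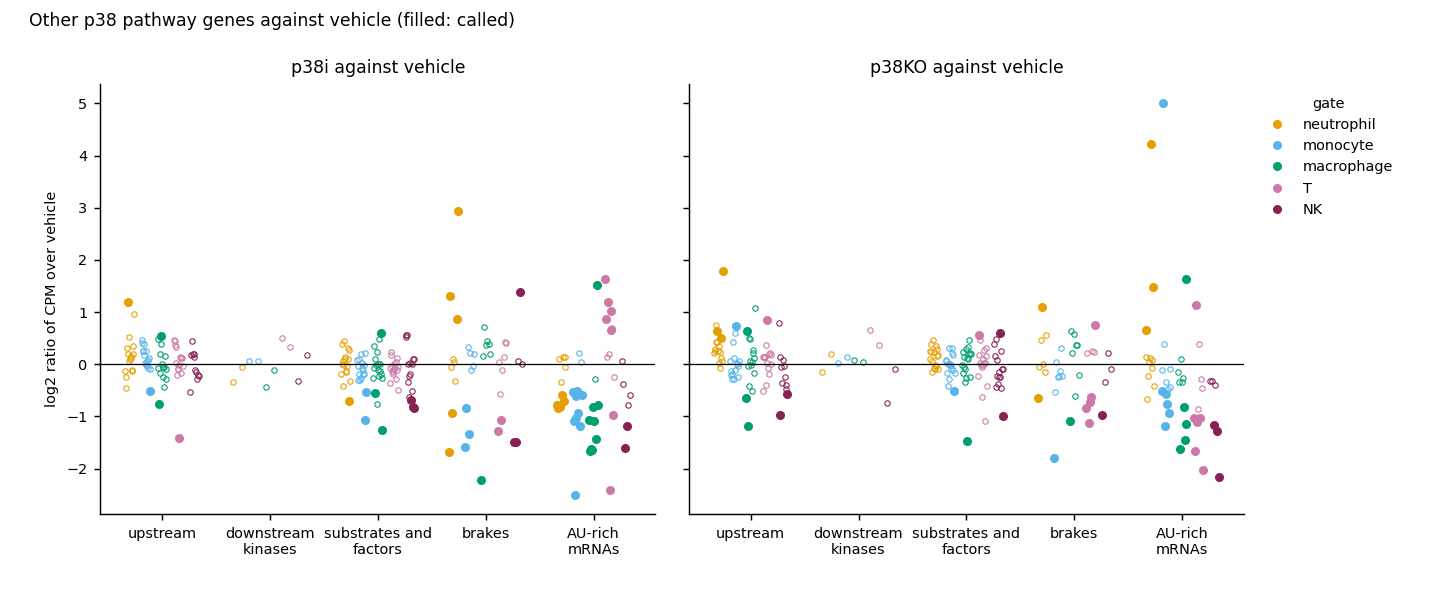
Log2 ratios to vehicle of the other pathway genes by list and gate for p38i and p38KO, for values with at least 20 UMIs over both libraries and without the DC gate; filled points are called. In p38i the AU-rich mRNAs of monocytes and macrophages lie mostly below 0, with medians of -0.60 and -1.07, while the upstream genes and downstream kinases lie around 0.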

How the data were processed

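The deposited values are raw UMI counts per gene and cell barcode, which the authors made with Cell Ranger (6.0.0 per the file headers; mm10 per the labels), with no normalization. The submitters' processing notes also name R 4.2.1 and Seurat 5. The cell number sorted and the kit version differ between the sources and were not used.

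Cells with at least 1500 UMIs, 300 genes and at most 20% mitochondrial UMIs were kept, as in the study. A cell entered the gate with the most UMIs of its genes if these were at least 2 and more than those of all other gates together. In cells with at least 3 C1qa UMIs, Ly6c2 and Fn1 were not counted. No doublet caller was run. T cells described as with Cd8a or Cd8b1 held no Cd4, and those with Cd4 and no Foxp3 held no Cd8a or Cd8b1. Those with Foxp3 were taken whatever else they held. Counts were summed per gate and library and scaled to CPM over all genes, with exact Poisson intervals. Ratios carry exact conditional binomial intervals, with 0.5 in place of a count of 0. Shares of cells used counts thinned to 1500 UMIs a cell. Thinning for shares and thinning for ratios were separate random draws, each made once. A 3′ count does not scale with transcript length, and levels were compared between gates and not between genes.

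The members and lists were chosen with earlier results of these data known. Besides the 10 members, the genes named were, of each list, the 3 called with the largest absolute ratio per contrast and the 3 that led each gate by the largest fold. Values of Tnf, Il1b, Cxcl2, Ccl4, Csf2, Dusp1, Map2k3 in T cell subsets and Mapkapk2 in DC beyond this rule, and the splits of cells by depth, were chosen after their values were seen. Likeness was taken over log2(CPM + 10) for members with at least 1000 UMIs.

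Gene positions and coding windows came from GENCODE M21 on GRCm38, where all 10 gene IDs matched. Protein sequences were not analysed here. Python 3.11.15, numpy 2.4.6, scipy 1.17.1, pandas 2.3.3 and matplotlib 3.10.9 were used. The calls were tried on simulated counts with counting error only and with changes well above the size of a call. That says nothing on variation between mice or on changes near the limit. Other settings tried were the cell and gate limits, the scaling, the minimum count, thinning and leaving out shared barcodes and, added after the data were seen, cells with markers of another class or of the tumor and a lower mitochondrial limit.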

Additional observations from a re-analysis of the deposited data

How the results depend on the processing

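With 1 library per group, nothing here speaks to variation between mice, DC were limited by their number (63 cells), and Mapk11, Mapk12 and Map2k6 by their counts. Of 13 member calls, Mapkapk3 in p38KO T cells held under all 14 other settings, and Mapk13 in p38KO neutrophils and Map3k5 in p38KO macrophages under 13, all but thinning. The 3 calls higher in p38i became 1 with the strict gate (no UMI of another gate's genes) and 1 with a 5% mitochondrial limit. After thinning none of these 3 held, and 2 others were called (Mapkapk3 in neutrophils and Mapk14 in monocytes). The 1 call lower in p38i became 0 with a gate minimum of 1 or 3 UMIs, the strict gate, Ly6c2 and Fn1 always counted, a 5% mitochondrial limit or without cells holding an epithelial marker, and 2 with median-ratio scaling. The 6 calls higher in p38KO became 3 after thinning, 2 of them shared. The 3 calls lower in p38KO became 1 with a gate minimum of 1 UMI, the strict gate or without cells holding markers of another class, and 0 after thinning. Thinning also removed most UMIs of the deeper gates, so calls there could be lost for too few UMIs. The cause was not tested. The log2 ratio of Mapk14 in p38i macrophages changed sign after thinning, to -1.03 (-2.75 to 0.53), an interval that held 0 and the main value of 0.50. That value came from a single random draw. In the separate draw for shares of cells, vehicle macrophages had the lowest share with a Mapk14 UMI (5.20%), so the sign depended on the draw. Of 1980 levels recomputed, 1744 stayed within their main interval, and most of the 236 others came from thinning (89) and from scaling without abundant genes (93). No paired analysis was possible because each group is 1 library.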

Other observations

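Mast and B cells, minor classes outside the gates, differed in number between libraries. Ungated cells with at least 2 UMIs of Cpa3, a mast cell protease, were 3 in vehicle, 6 in p38i and 80 in p38KO. In the 80 cells Map2k3 stood at 52.5 CPM (30.6 to 84.0), Mapkapk2 at 46.3 CPM (25.9 to 76.3) and Mapk14 at 18.5 CPM (6.79 to 40.3), and Mapk13 had no UMI. Ungated cells with at least 2 UMIs of Cd79a, a B cell receptor component, were 30, 23 and 11, and held 2, 6 and 3 Mapk14 UMIs, too few to compare.

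In T cells with Foxp3, Map2k3 was higher than in those with Cd8a or Cd8b1 in each library, at 102 against 60.3 CPM in vehicle, 178 against 72.7 in p38i and 146 against 62.8 in p38KO. The interval of the ratio left out 0 in all 3. Cells with Foxp3 and with Cd8a or Cd8b1 but no Cd4 counted in both groups, which the interval does not allow for. DC with Ccr7, a receptor of migrating dendritic cells, held more Mapkapk2 than those without it in p38i (222 against 93.4 CPM, from 6 and 13 cells) and in p38KO (194 against 66.1 CPM, from 3 and 30 cells), counts that allow no more than a description.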
